A study of Homo sapiens with 3 samples.

Results

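The proteasome is the protease complex that degrades most ubiquitin-tagged proteins of the cell, and its genes carry names that begin with PSM. The genes described here are the 49 protein-coding genes whose name starts with PSMA, PSMB, PSMC, PSMD, PSME, PSMF or PSMG followed by a digit, out of 19951 protein-coding genes and 58735 genes listed in all. They comprise 31 constitutive subunits, 3 inducible catalytic subunits (PSMB8, PSMB9 and PSMB10), 2 tissue-restricted subunits, 7 assembly chaperones, 4 activators, 1 inhibitor and 1 gene, PSMC3IP, which shares the name pattern but encodes a meiotic recombination factor. Counts were present for 47 of the 49 genes, and these 47 passed the filter of at least 10 counts summed over the libraries.

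Poly(A) RNA from DU145, an epithelial cancer line of prostate origin, was sequenced in 3 libraries: 1 control and 2 labelled PD-L1 knockdown, called here knockdown 1 and knockdown 2. According to the study's methods, knockdown lines carried lentiviral pLKO.1 hairpin constructs against PD-L1, the immune checkpoint ligand, and were made beside a line with the empty vector under puromycin. Whether the sequenced control was that line is not stated. The study asked which transcripts differ in castration-resistant prostate cancer cells once PD-L1 is lowered. The study names PD-L1sh1/2 cells but lists 1 hairpin sequence. Whether the 2 knockdown libraries come from separate hairpins, lines or cultures is not stated. Both share this single control, whose label names DU145 but whose count column is headed with RBM45. What this header means for the control was not tested.

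Total counts lay between 14733088 and 15786457, and 24735 to 25617 genes had at least 1 count in a library. CD274, which encodes PD-L1 and checks the labels, was no lower where the label says PD-L1 knockdown: it had 204 counts in the control, 213 in knockdown 1 and 224 in knockdown 2 (log2 fold change 0.05, edgeR adjusted p = 0.947). The groups are therefore named by their labels throughout. The study checked its knockdown lines, DU145 among them, by western blot of PD-L1 protein, which these counts do not measure. The epithelial markers KRT8, KRT18, EPCAM and CDH1 summed to between 27014 and 31103 counts per library, whereas KLK3, a gene of prostate luminal cells, had 0 counts in every library, which allows up to 0.204 CPM, the count scaled to a common library total. Among markers of leukocytes, cells in which the immunoproteasome is constitutive, PTPRC had 0, 3 and 1 counts in the control, knockdown 1 and knockdown 2, CD68 had 0, 2 and 1, and CD3E was at 0. Thyroid markers were checked because the series text names a thyroid line: TG had 11, 3 and 15 counts, TSHR 2, 3 and 2, and PAX8 13, 28 and 29. Knockdown 2 differed from knockdown 1 by more than sampling noise (chi-square per degree of freedom 5.57 over 18413 genes), so these are separate libraries.

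Substrates enter a barrel-shaped core particle built of stacked alpha and beta rings. The alpha rings form the gate, and the beta rings carry the catalytic subunits PSMB6, PSMB7 and PSMB5, which cleave after acidic, basic and hydrophobic residues, respectively. A regulatory particle caps the core: its base holds the ATPases that unfold the substrate, and its lid holds the deubiquitinase PSMD14. Under interferon, cells can build PSMB9, PSMB10 and PSMB8 into new cores in place of the constitutive catalytic subunits, giving the immunoproteasome, which yields peptides suited to HLA class I molecules.

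No proteasome gene changed at an adjusted p under 0.05. The edgeR quasi-likelihood test of both knockdown libraries against the control called 0 of the 47 genes, against 0.353% of the 19849 genes tested, and the smallest adjusted p among the 47 was 0.164 (PSMB6). DESeq2 likewise called 0. When a log2 fold change beyond 1 in either direction was required together with an unadjusted p under 0.05, the count was again 0 of 47, against 2.48% of all genes. With an unadjusted p under 0.05 alone, PSMA7, PSMB6, PSMB9, PSMC3 and PSMG4 had higher values (5 of 47, or 10.6%, against 6.82% of all genes) and 0 of 47 had lower values, against 4.92%. By DESeq2's Wald test 1 gene, PSMB6, had an unadjusted p under 0.05. The spread came from 1 residual degree of freedom, between the 2 knockdown libraries, and no spread could be measured for the control. In the main edgeR fit this spread was pooled over genes, with infinite prior degrees of freedom. A gene's own disagreement between the knockdown libraries therefore had no weight in its p-value or SE.

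Counts in the text are as deposited, and knockdown 2 had the highest total. Because the control is 1 library, the libraries were also set side by side as ratios with 95% counting intervals. Library sizes were scaled by TMM, edgeR's trimmed mean of log ratios. Such intervals cover counting error only. Proteasome genes whose mean count was at least 100 numbered 45. Of these, 20 (44.4%) were higher in knockdown 1 than in the control by more than counting error. The share was 22.2% over all 10861 genes whose mean count was at least 100. In the same library 5 (11.1%) were lower, against 18.4%. In knockdown 2, 20 (44.4%) were higher than in the control, against 28.6%, and 7 (15.6%) were lower, against 27.6%. Between the knockdown libraries, knockdown 2 was higher than knockdown 1 for 7 genes (15.6%, against 18.1%). It was lower for 8 (17.8%, against 19.4%). Counting intervals narrow as counts rise, and the genes were not matched for count above this limit. In the control the median FPKM, the count divided by gene length and library size, was 23.6 for the 49 proteasome genes. It was 8.23 for the 10861 genes. The part of depth in these shares was not tested. Over the 31 constitutive subunits the median log2 fold change was 0.08, with 18 above 0 and 13 below, whereas the median over all genes tested was 0.00. In summed counts, the constitutive subunits stood at 1.07 times the control in knockdown 1 (interval 1.06 to 1.08) and 1.07 times in knockdown 2 (1.06 to 1.08). Both knockdown libraries were set against the same control library, so these ratios are not independent of each other.

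**Figure D1:**
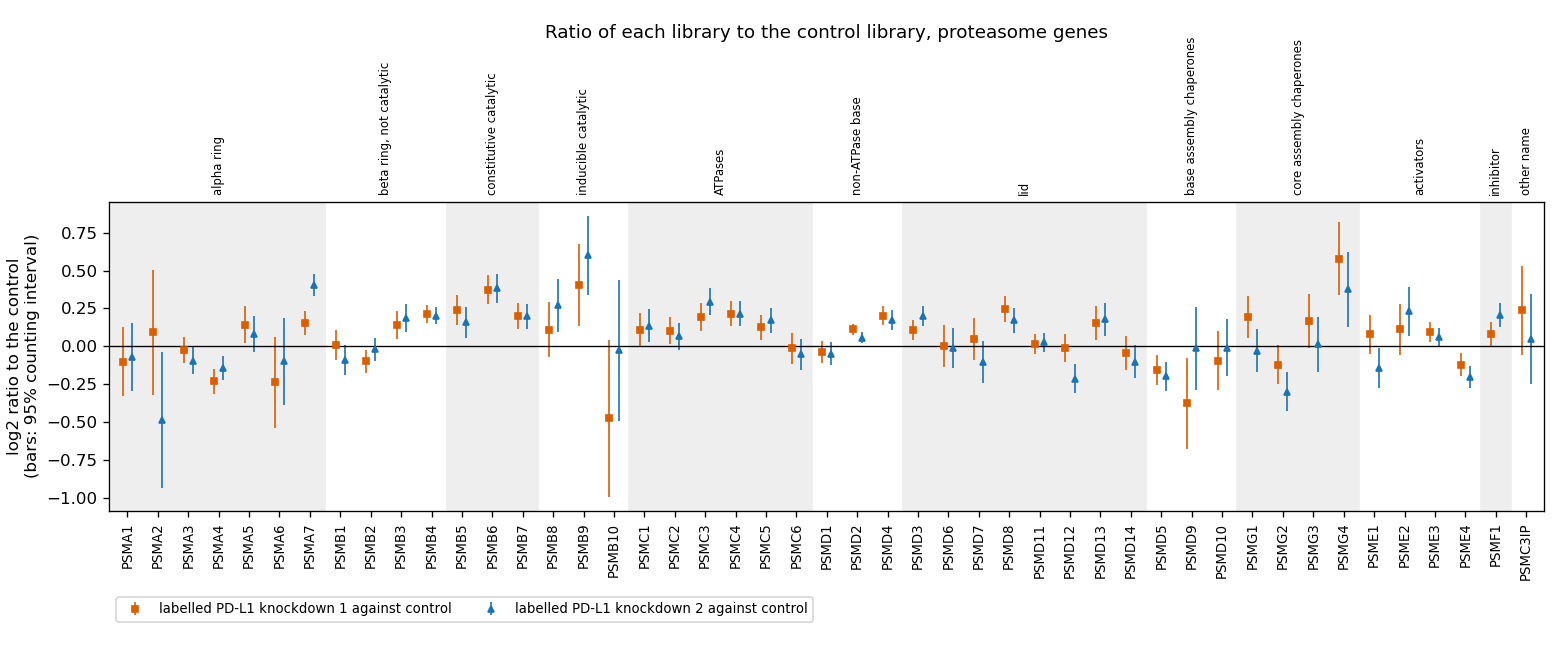
Log2 ratio of each library labelled PD-L1 knockdown to the control for the 47 genes with counts, grouped by class; points are ratios at TMM-scaled library sizes and bars are 95% counting intervals. The 3 constitutive catalytic subunits lie above 0 in both libraries, PSMG4 lies highest in knockdown 1 and PSMB9 in knockdown 2, and PSMB10 has the widest interval.

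The 3 constitutive catalytic subunits had higher counts in both knockdown libraries than in the control, though none of them passed the adjusted test. PSMB6, the caspase-like subunit, had 1524 counts in the control, 1966 in knockdown 1 and 2129 in knockdown 2. Its ratio to the control was 1.30 in knockdown 1 (interval 1.21 to 1.39) and 1.30 in knockdown 2 (1.22 to 1.39), and its log2 fold change was 0.38 ± 0.12 (SE; edgeR adjusted p = 0.164). The control value of PSMB6 lay below both knockdown values, which were close to each other.

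PSMB7, the trypsin-like subunit, had 2184, 2498 and 2684 counts in the control, knockdown 1 and knockdown 2, with a log2 fold change of 0.20 (edgeR adjusted p = 0.526). PSMB5, the chymotrypsin-like subunit and the main target of proteasome inhibitor drugs, had 1473, 1731 and 1759 counts (log2 fold change 0.20, edgeR adjusted p = 0.548). With the trend of length and GC content removed, the log2 fold changes of PSMB6, PSMB7 and PSMB5 were 0.29, 0.17 and 0.11, respectively. For PSMB7 and PSMB5 the intervals of both ratios to the control lay above 1. Summed over the 3 subunits, the ratio to the control was 1.20 in knockdown 1 (1.16 to 1.25) and 1.18 in knockdown 2 (1.14 to 1.23). Among the constitutive groups described below, the ratios nearest to these were those of the ATPases, at 1.09 and 1.11. The median log2 fold change was 0.20 for the 3 catalytic subunits and 0.13 for the ATPases. With the trend of length and GC content removed, these medians were closer, at 0.17 and 0.14.

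The inducible catalytic subunits had values in both directions. PSMB9, the inducible caspase-like subunit, had 199 counts in the control, 262 in knockdown 1 and 323 in knockdown 2. Its ratio to the control was 1.32 (1.10 to 1.60) in knockdown 1 and 1.52 (1.27 to 1.82) in knockdown 2, and its log2 fold change of 0.51 ± 0.20 (SE) was the highest of the 47 genes (edgeR adjusted p = 0.263). Its control value lay below both knockdown values.

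PSMB8, the inducible chymotrypsin-like subunit, had 482, 518 and 622 counts (log2 fold change 0.19, edgeR adjusted p = 0.665; 0.10 with the trend of length and GC content removed); the interval of its ratio to the control included 1 in knockdown 1 (1.08, 0.95 to 1.22) but not in knockdown 2 (1.21, 1.07 to 1.36). PSMB10, the inducible trypsin-like subunit, had only 78, 56 and 82 counts, with a log2 fold change of -0.23 and an SE of 0.31 (edgeR adjusted p = 0.819). Its ratio to the control was 0.72 (0.50 to 1.03) in knockdown 1 and 0.98 (0.71 to 1.36) in knockdown 2, so both intervals included 1. At these counts no difference in PSMB10 was detected.

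The share of each catalytic pair held by its inducible subunit does not depend on scaling between libraries. Gene length here is that of all annotated exons of a gene merged. Per base of this length, PSMB8 made up 16.2% of PSMB8 and PSMB5 in the control (95% Clopper-Pearson interval 14.8% to 17.6%). It made up 14.98% in knockdown 1 (13.8% to 16.3%) and 17.2% in knockdown 2 (15.9% to 18.6%). PSMB9 held 5.80% of its pair with PSMB6 in the control (5.02% to 6.66%), 5.91% in knockdown 1 (5.21% to 6.67%) and 6.67% in knockdown 2 (5.96% to 7.44%). For these pairs the intervals of every knockdown library overlapped that of the control, which is not a test of a difference in share.

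PSMB10 held the smallest share, at 3.33% of its pair with PSMB7 in the control (2.64% to 4.14%). It held 2.12% in knockdown 1 (1.60% to 2.74%) and 2.86% in knockdown 2 (2.28% to 3.54%). Both knockdown intervals overlapped that of the control, narrowly in knockdown 1, and no difference in share was tested. On the FPKM scale, the count divided by gene length and library size, the constitutive subunit stood 5.19-fold above the inducible subunit for PSMB5 over PSMB8 in the control, 16.2-fold for PSMB6 over PSMB9 and 29.03-fold for PSMB7 over PSMB10. The order of the pairs was the same in each of the 3 libraries. These shares and fold values depend on the annotated gene lengths. Without division by length, the control shares were 24.7% for PSMB8, 11.5% for PSMB9 and 3.45% for PSMB10. In bulk RNA, fewer cells with a transcript and less of it per cell cannot be told apart.

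**Figure D2:**
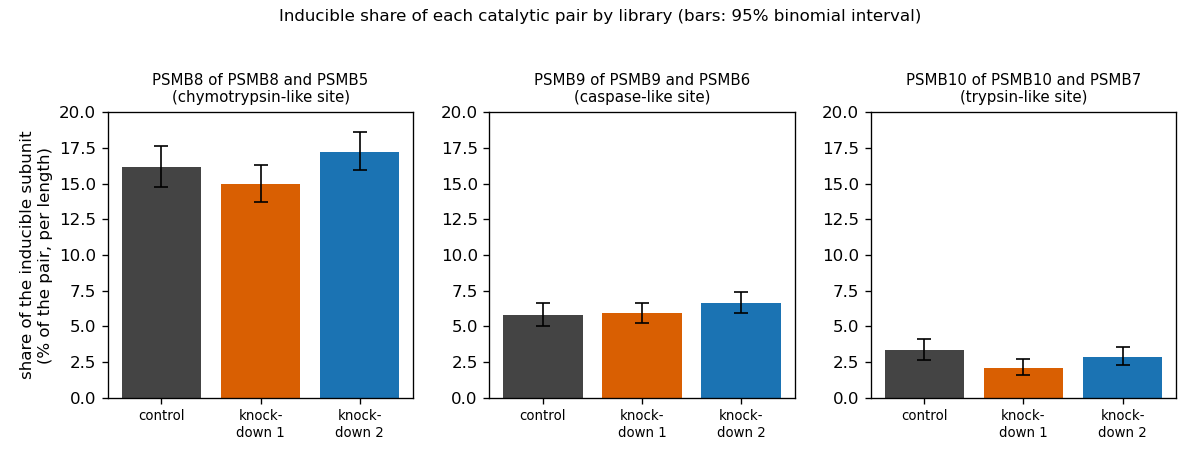
Share of the inducible subunit in each catalytic pair (percent of the pair, counts per base of gene length) in the control, knockdown 1 and knockdown 2; bars are shares and error bars are 95% binomial intervals. The shares fall from the PSMB8 pair (14.98% to 17.2%) to the PSMB9 pair (5.80% to 6.67%) and the PSMB10 pair (2.12% to 3.33%). Within each pair the knockdown intervals overlap that of the control, which is not a test of a difference.

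PSMB8 and PSMB9 lie together on chromosome 6, within the HLA class II region and beside the peptide transporter genes TAP1 and TAP2. On GRCh38 PSMB8 spans chr6:32840717-32844703 on the minus strand and PSMB9 spans chr6:32844136-32859585 on the plus strand, while PSMB10 lies apart at chr16:67934502-67937087 on the minus strand. The RefSeq start of PSMB9 used here (chr6:32854192) and that of TAP1 (chr6:32853704) are 488 bases apart and point away from each other. TAP1, which carries peptides from the cytosol to HLA class I molecules, had 916, 1101 and 1266 counts (log2 fold change 0.32, edgeR adjusted p = 0.316), so its control value, like that of PSMB9, was the lowest of the 3.

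Interferon acts on these genes through interferon regulatory factors, which bind repeats of GAAA. The letters GAAANNGAAA, or TTTCNNTTTC on the other strand, were searched in 300-base RefSeq windows (GRCh38.p14) running from 250 bases before to 50 bases after each start, which were found for 43 of the 49 genes. They occurred in 7 of 53 windows of proteasome genes (13.2%) and in 3.57% of all 35116 windows. The 7 genes were PSMA4, PSMB4, PSMB8, PSMB10, PSMG4 and both subunits of the interferon-inducible activator, PSME1 and PSME2. The stretches of 5 of them and of TAP1 are shown: PSMB8, PSMB10, PSME1 and PSME2 because they are inducible by interferon, TAP1 as the neighbour of PSMB9, and PSMG4 for its log2 fold change; each is written 5′ to 3′ on the strand of its gene, with the element in capitals.

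PSMB8 (chr6:32844028-32844076, minus strand): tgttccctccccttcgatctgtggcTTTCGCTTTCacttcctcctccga
PSMB10 (chr16:67936837-67936896, minus strand): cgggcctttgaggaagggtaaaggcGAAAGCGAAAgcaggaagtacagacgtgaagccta
PSME1 (chr14:24136174-24136213, plus strand): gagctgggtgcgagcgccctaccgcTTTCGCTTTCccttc
PSME2 (chr14:24146604-24146663, minus strand): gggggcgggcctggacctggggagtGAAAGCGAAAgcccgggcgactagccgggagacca
PSMG4 (chr6:3258889-3258948, plus strand): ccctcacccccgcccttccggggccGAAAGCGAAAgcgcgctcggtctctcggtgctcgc
TAP1 (chr6:32853804-32853863, minus strand): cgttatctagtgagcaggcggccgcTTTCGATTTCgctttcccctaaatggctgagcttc

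In PSMB8, PSMB10, PSME2 and PSMG4 the element began 4, 21, 28 and 33 bases before the start, respectively. In PSME1 it began just after the start. In TAP1 it began 134 bases before the start, between the starts of TAP1 and PSMB9. The window of PSMB9 itself held no match to these letters. The 7 genes with the element had log2 fold changes from -0.23 to 0.48 with a median of 0.17, 4 of them above 0, while the 34 tested genes whose windows lacked it had a median of 0.05, with 18 above 0. A match describes the letters only, and no binding was measured.

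The transcription factors NFE2L1 and NFE2L2 drive proteasome genes through antioxidant response elements. The core letters TGACNNNGC, or GCNNNGTCA on the other strand, were present in 15 of the 53 windows (28.3%) and in 13.3% of all windows. PSMB9 carried them 148 bases before its start.

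PSMB9 (chr6:32854019-32854077, plus strand): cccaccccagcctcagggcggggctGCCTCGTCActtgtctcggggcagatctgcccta

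The 15 genes with the core letters had a median log2 fold change of -0.03, with 7 above 0, against 0.08 for the 26 tested genes whose windows lacked them, with 15 above 0. NFE2L1, the factor that raises proteasome genes when proteasome activity is low, had 3684, 3879 and 4702 counts (log2 fold change 0.17, edgeR adjusted p = 0.589). NFE2L2, its relative in the oxidative stress response, had 1498, 1500 and 1430 counts (log2 fold change -0.08, edgeR adjusted p = 0.859). DDI2, the protease that activates NFE2L1, had 904, 770 and 717 counts, the highest in the control (log2 fold change -0.33, edgeR adjusted p = 0.334).

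The alpha ring, which gates the core, showed no common direction. Its 7 genes summed to 8846, 8755 and 9963 counts, at ratios to the control of 0.99 (0.97 to 1.02) in knockdown 1 and 1.05 (1.02 to 1.08) in knockdown 2, and 2 of the 7 had a log2 fold change above 0. PSMA7 had 2541, 2814 and 3601 counts, highest in knockdown 2, with a log2 fold change of 0.28 (edgeR adjusted p = 0.308). PSMA4 lay the other way, with 2454, 2079 and 2378 counts (log2 fold change -0.19, edgeR adjusted p = 0.551), which became -0.02 with the trend of length and GC content removed. In knockdown 2, the library with the ring's higher sum, the ratio of PSMA7 to the control was 1.32 (1.26 to 1.39).

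The beta subunits without catalytic activity, PSMB1 to PSMB4, stood at 1.07 times the control in both knockdown libraries (1.04 to 1.10 in each). PSMB4 had 4584, 5293 and 5639 counts and PSMB3 had 1744, 1914 and 2127, and the control value of each was the lowest of the 3. PSMB1 had 1724, 1725 and 1732 counts, at ratios to the control of 1.01 (0.94 to 1.08) and 0.94 (0.88 to 1.00). PSMB2 had 2818, 2619 and 2974, and its ratio was 0.93 (0.88 to 0.98) in knockdown 1, below 1 by more than counting error, and 0.99 (0.94 to 1.04) in knockdown 2. The log2 fold changes of these 4 genes ran from -0.06 to 0.21, with a smallest edgeR adjusted p of 0.469.

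The 6 ATPases of the base, PSMC1 to PSMC6, which unfold the substrate and open the gate, summed to 1.09 times the control in knockdown 1 (1.07 to 1.12) and 1.11 times in knockdown 2 (1.08 to 1.14). PSMC3 had 1711, 1946 and 2248 counts and the only unadjusted p under 0.05 of the group (log2 fold change 0.24, edgeR adjusted p = 0.417), which was lost under scaling by library totals and with the trend of length and GC content removed. Of the other 5, PSMC4 had the largest log2 fold change, 0.22, from 2071, 2395 and 2575 counts. PSMC6 alone was below 0, at -0.03, but had 0.16 with the trend of length and GC content removed.

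The other base subunits are the scaffolds PSMD1 and PSMD2 and the ubiquitin receptor PSMD4. PSMD2 had the most counts of all proteasome genes, 11416, 12277 and 12701, and a log2 fold change of 0.08 (edgeR adjusted p = 0.809). PSMD4 had 3749, 4296 and 4526 counts (log2 fold change 0.19, edgeR adjusted p = 0.532). PSMD1 had 2992, 2903 and 3098 counts, a difference below counting error in both libraries.

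In the lid, 4 of the 8 genes had log2 fold changes above 0 and 4 below, and the summed ratios to the control were 1.05 (1.03 to 1.08) and 1.04 (1.01 to 1.06). PSMD8 stood at the top of this range at 0.21, with 2122, 2504 and 2556 counts, but had 0.03 once the trend of length and GC content was removed. PSMD12 stood at the bottom at -0.11, with 1932, 1911 and 1784. PSMD14, the deubiquitinase that removes ubiquitin chains during degradation, had 1368, 1321 and 1364 counts (log2 fold change -0.07, edgeR adjusted p = 0.87). The intervals of both ratios of PSMD14 to the control included 1. With the trend removed, PSMD12 and PSMD14 lay above 0, at 0.04 and 0.18.

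Assembly chaperones guide the particles together and are not part of the finished proteasome. The 3 base chaperones PSMD5, PSMD9 and PSMD10 summed to 2507, 2229 and 2428 counts, which gave ratios to the control of 0.89 (0.84 to 0.95) in knockdown 1 and 0.90 (0.86 to 0.96) in knockdown 2. PSMD5 made up most of this sum, with 1833, 1637 and 1712 counts (log2 fold change -0.18, edgeR adjusted p = 0.596). PSMD9 was low only in knockdown 1, at 218, 167 and 231 counts (log2 fold change -0.18, edgeR adjusted p = 0.774). The median log2 fold change of the 3 genes was -0.18, and -0.10 with the trend of length and GC content removed. PSMD10 was then at 0.03.

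The core chaperones PSMG1 to PSMG4 diverged. PSMG4 had 237, 352 and 329 counts, giving the second highest log2 fold change of the 47, 0.48 ± 0.19 (SE; edgeR adjusted p = 0.267). PSMG2, which pairs with PSMG1 to build the alpha ring, had 1054, 964 and 917 counts and the lowest log2 fold change among genes whose mean count was at least 100, -0.21 (edgeR adjusted p = 0.563). PSMG1 had 803, 914 and 842 counts, at ratios to the control of 1.14 (1.04 to 1.26) in knockdown 1 and 0.98 (0.89 to 1.08) in knockdown 2.

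Activators open the core without the regulatory particle. PSME1 and PSME2, which form the interferon-inducible activator, had 949, 997 and 918 counts (log2 fold change -0.03, edgeR adjusted p = 0.955) and 559, 601 and 702 counts (0.17, edgeR adjusted p = 0.697), respectively. PSME3, a nuclear activator, had 3900, 4143 and 4352 counts (log2 fold change 0.08, edgeR adjusted p = 0.845). PSME4, which acts on acetylated histones, had 3060, 2799 and 2844 counts, highest in the control (log2 fold change -0.16, edgeR adjusted p = 0.610), but after removal of the trend with gene length and GC content its log2 fold change was 0.035.

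PSMF1, an inhibitor of the isolated core, had 2323, 2445 and 2867 counts (log2 fold change 0.14, edgeR adjusted p = 0.665). PSMC3IP had 179, 210 and 198 counts (log2 fold change 0.14, edgeR adjusted p = 0.841). The testis subunit PSMA8 and the thymus subunit PSMB11 had 0 counts in every library, which allows up to 0.204 CPM in the control.

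Among the partners and regulators of the proteasome outside the PSM names, 0 of 30 genes passed the adjusted test, and their log2 fold changes had a median of 0.05 (from -0.33 to 0.45). With an unadjusted p under 0.05, 2 were higher and 2 lower, against 6.82% and 4.92% of all genes. ADRM1, a ubiquitin receptor of the base, had 1089, 1370 and 1701 counts (log2 fold change 0.45, edgeR adjusted p = 0.097), and SEM1, a small lid subunit, had 563, 772 and 762 (0.40, edgeR adjusted p = 0.244). UBA6, a ubiquitin-activating enzyme, was the second gene with a lower value, next to DDI2, with 1939, 1578 and 1600 counts (log2 fold change -0.33, edgeR adjusted p = 0.225). With the trend of length and GC content removed the values were -0.05 for UBA6 and -0.16 for DDI2. POMP, a chaperone of core assembly, had 1031, 982 and 1061 counts (log2 fold change -0.06, edgeR adjusted p = 0.908).

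Among the antigen presentation and interferon genes HLA-B, HLA-C, B2M, TAP1, TAP2, TAPBP, IRF1 and NLRC5, which act with the immunoproteasome or induce it, HLA-C alone passed the adjusted test, which called 0.353% of all genes, with 1902, 2549 and 3103 counts (log2 fold change 0.52, edgeR adjusted p = 0.014). This call was lost with the trend of length and GC content removed (log2 fold change 0.33, edgeR adjusted p = 0.397) and under DESeq2's Wald test (adjusted p = 0.9998). IRF1, an interferon-induced transcription factor, had 348, 377 and 452 counts (log2 fold change 0.20, edgeR adjusted p = 0.675). NLRC5, the activator of HLA class I genes, TAP2 and B2M had log2 fold changes between -0.06 and 0.08.

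Levels within the complex were compared per length, in FPKM as deposited. In the control the 31 constitutive subunits ranged from 1.24 to 143 FPKM, a 116-fold range, although the assembled particle holds its core subunits in equal number. PSMB4 was highest, at 143, 166 and 165 FPKM in the control, knockdown 1 and knockdown 2, followed by PSMD2 at 141, 152 and 147. At the other end were PSMA2, at 1.24, 1.32 and 0.89 FPKM, and PSMA6, at 2.12, 1.80 and 1.99. The differences among the subunits were thus far larger than those among the libraries. FPKM here divides by the merged length of all annotated exons, which exceeds the coding length unevenly. PSMA2 had 5336 exon bases for 723 coding bases, and PSMB4 had 2158 for 792. The part of this length in the range was not tested.

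**Figure D3:**
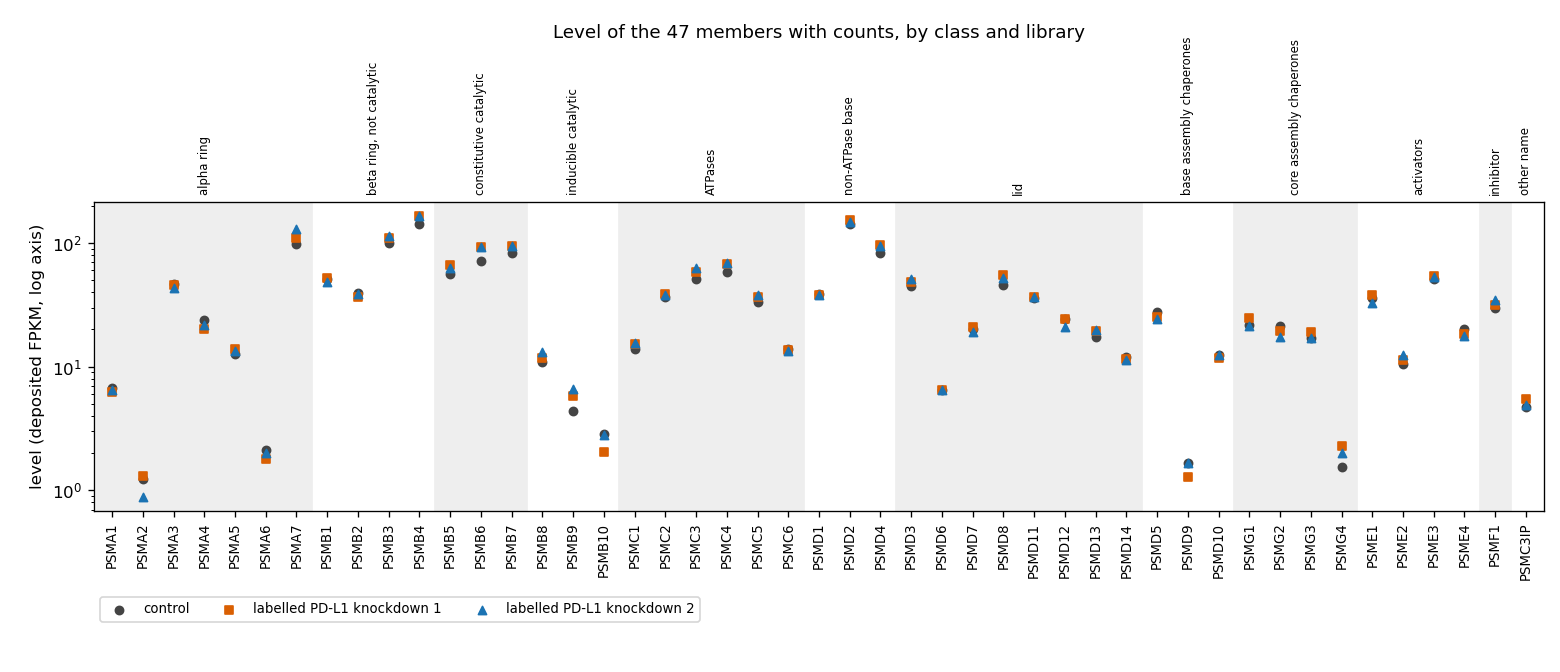
Deposited FPKM (log axis) of the 47 genes with counts, by library (control, knockdown 1 and knockdown 2) and grouped by class. PSMB4 and PSMD2 lie highest, PSMA2, PSMA6, PSMB10, PSMD9 and PSMG4 lie lowest, and the libraries lie close together for each gene.

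The lowest genes were largely those whose coding sequence another gene covers on the same strand. In the GENCODE 29 annotation, whose positions and gene lengths match the files for all 58735 genes, 5 of the 47 genes had at least 50% of their coding bases inside an exon of another gene on the same strand. These were PSMA2 (97.1%), PSMA1 (88.6%), PSMA6 (70.4%), PSMD9 (58.7%) and PSMB10 (58.3%). Their mean level over the libraries ran from 1.15 to 6.50 FPKM, ranks 39 to 47 of 47. The 3 such constitutive subunits, PSMA1, PSMA2 and PSMA6, lay between 1.24 and 6.75 FPKM in the control, and the other 28 between 6.48 and 143.

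The overlapping genes themselves took few counts: AC018523.2 over PSMA1 had 0 in every library, AC010132.3 over PSMA2 had 0, 0 and 4, and AL121594.1 over PSMA6 had 20, 28 and 41. AC040162.1, over PSMB10, had 41, 48 and 35 counts, where PSMB10 itself had 78, 56 and 82. How reads shared by both genes were counted was not given in the sources used here, and the part of the overlap in these levels was not tested. The level of PSMB10, and with it the share of its pair, carries this limit. Without the 3 overlapped genes the median log2 fold change of the constitutive subunits was 0.12, over 28 genes.

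**Figure D4:**
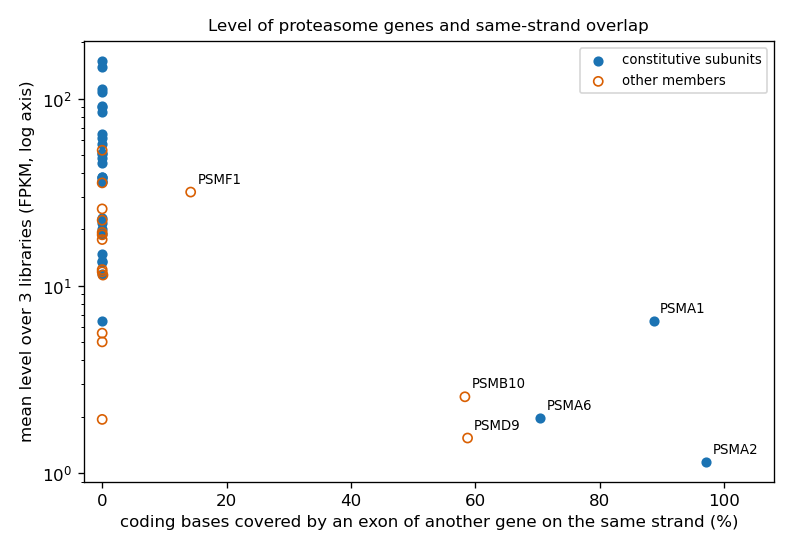
Mean FPKM over the 3 libraries (log axis) against the percent of coding bases covered by an exon of another gene on the same strand, for the 47 genes with counts; filled points are constitutive subunits and open points are other genes. The 5 genes at 58.3% or more lie between 1.15 and 6.50 FPKM.

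Other genes share sequence with the opposite strand or with copies, and no source states that counting used strand. Exons of NRDE2 on the opposite strand cover 75.8% of PSMC1, which had 1281, 1375 and 1505 counts against 637, 528 and 638 for NRDE2. PSMB8-AS1 covers 20.6% of PSMB8 from the opposite strand and had 13, 25 and 31 counts, against 482, 518 and 622 for PSMB8. On the same strand as PSMB9 it covers 5.66% of the exon bases of that gene, outside the coding bases. PSMB9 had 199, 262 and 323 counts. The part of PSMB8-AS1 in the counts of PSMB8 and PSMB9 was not tested. Processed copies share 31-base words with several genes: PSMC1P1 holds 20.2% of the words of PSMC1 and PIPSL 15.5% of those of PSMD4, so these values are less certain than those of genes without copies.

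Differences followed GC content among the proteasome genes as they did among all genes. Across the 47 genes the log2 fold change was higher at higher GC content of the exons (Spearman's rho 0.59) and lower at greater gene length (-0.41); over 10859 genes whose mean count was at least 100 the values were 0.68 and -0.29. These are correlations across genes of the same 3 libraries, and genes are not independent replicates. The 21 genes with a GC content of at least 50% had a median log2 fold change of 0.17, with 18 above 0, and the 26 below 50% had a median of -0.04, with 9 above 0. The same split of all genes of that depth gave 0.15 and -0.11.

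With the trend of length and GC content removed by offsets, PSMB6 had a log2 fold change of 0.29, PSMB9 0.46, PSMG4 0.51, PSMA7 0.20 and PSMC3 0.11, the last with no unadjusted p under 0.05. The other catalytic subunits had 0.17 (PSMB7), 0.11 (PSMB5) and 0.10 (PSMB8), and PSMB10 had -0.46. The median of the constitutive subunits was then 0.09, against 0.02 over all genes tested. The smallest edgeR adjusted p among the 47 genes was 0.522. Among the partners, ADRM1 had 0.19 in place of 0.45, UBA6 -0.05 in place of -0.33 and DDI2 -0.16 in place of -0.33, whereas SEM1 had 0.60 in place of 0.40 (edgeR adjusted p = 0.073). PSMG4 and PSMB9 kept values close to those without the correction.

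**Figure D5:**
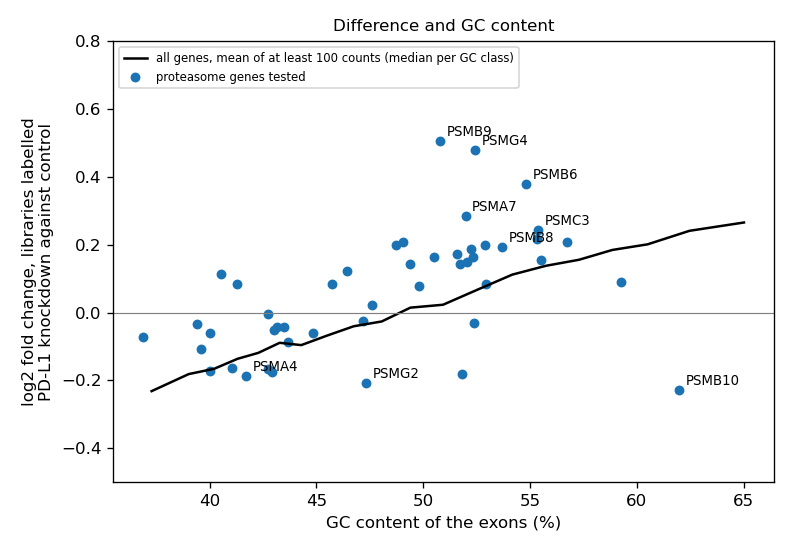
Log2 fold change (both knockdown libraries over the control) by GC content of the exons (percent); points are the 47 proteasome genes tested and the line joins medians of all genes whose mean count was at least 100, in classes of GC content. The proteasome genes follow the upward slope of the line, with PSMB9, PSMG4 and PSMB6 above it and PSMB10 below it.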

How the data were processed

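The authors sequenced poly(A) RNA of DU145 cells, and their submitted processing notes name TopHat2 2.0.9, Bowtie2 2.0.6, Cufflinks 2.1.1 and Cuffdiff 2.1.1; the counter, genome build and strand setting were not given in the sources used here. The deposited counts are whole reads per gene, and the deposited FPKM values equal the counts divided by gene length and a constant per library. Gene positions match GENCODE 29 (GRCh38). The main test was edgeR 4.0.16 under R 4.3.3 (TMM, quasi-likelihood, Benjamini-Hochberg over 19849 genes with at least 10 summed counts), 2 libraries labelled PD-L1 knockdown against 1 control; the fit was tested on simulated data. DESeq2 1.42.0 was an alternative, as were other scalings, no low-count filter, a robust spread, removal of the length and GC trend (20 classes; 11 scaffold genes took the median GC content) and leaving out each knockdown library. Ratios carry exact 95% counting intervals. The study's methods name DU145 and PD-L1sh1/2 cells for sequencing but describe no replicate cultures of either, so p-values measure the spread between these libraries only. Counts are given for the 6 catalytic subunits, activators, PSMF1, PSMA8, PSMB11, PSMC3IP, genes with an unadjusted p under 0.05 and the 3 largest rises and falls with a mean of at least 100 counts; further genes were added to show the range of their class after their values were seen. The genes and lists were chosen with earlier results of these data known. Promoter windows are from RefSeq (GRCh38.p14). A count of 3 amounted to 0.190 to 0.204 CPM. Some genes of the marker and pathway lists are not reported here.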

Additional observations from a re-analysis of the deposited data

How the results depend on the processing

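The count of 0 proteasome genes at an adjusted p under 0.05 was the same under DESeq2 size factors, library totals alone, at least 1 count, the DESeq2 Wald test, a robust spread and removal of the length and GC trend, while the number of all genes called ran from 6 (DESeq2 Wald test) to 71 (DESeq2 size factors), against 70. With an unadjusted p under 0.05, 1 gene was higher by the DESeq2 Wald test in place of 5, and 1 gene (PSMG2) was lower with the length and GC trend removed in place of 0. With that trend removed 6 genes were higher, without PSMC3 and with PSMA5 and PSMB4, and under library totals 4 were, without PSMC3; the causes were not tested. With that trend removed PSME4 had a log2 fold change of 0.035 in place of -0.16. Leaving out each library labelled PD-L1 knockdown gave values with no test: the median of the constitutive subunits ran from 0.07 to 0.11, PSMB9 from 0.40 to 0.60, PSMB8 from 0.11 to 0.27 and PSMB10 from -0.47 to -0.02. PSMB10 was thus near 0 without knockdown 1. Counts not divided by length gave higher shares, by construction: 24.7%, 23.0% and 26.1% for PSMB8 and 11.5%, 11.8% and 13.2% for PSMB9 in the control, knockdown 1 and knockdown 2. No paired analysis was possible because the control is 1 library and shares only 1 replicate number with the other group.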

Other observations

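Noncoding genes named after proteasome genes had few counts, with 1 exception. PSMA3-AS1, antisense to PSMA3, had 771 counts in the control, 714 in knockdown 1 and 646 in knockdown 2 (edgeR adjusted p = 0.563), while PSMA3 had 2141, 2095 and 2147. PSMG3-AS1 had 77, 87 and 93 counts. Over 31 pseudogenes named after proteasome genes, 18 had 0 counts in every library and the rest summed to 90, 86 and 80 counts, of which PSMC1P1 held 64, 51 and 51.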
